A study of Mus musculus with 6 samples.

Results

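Chimeric AGO2 eCLIP ligates a miRNA to the RNA it is paired with inside the Argonaute protein AGO2, so that each read of a chimera names both the miRNA and the place it touched. Here the target clusters assigned to miR-124-3p were examined that lie away from gene ends, meaning that they do not overlap, on the same strand, the last 1000 nt of any mm10 RefSeq protein-coding gene. The 3 libraries held 66068 miRNA target assignments in all, of which 21058 met this rule and are called the members below. They were 7708 of the 9312 miR-124-3p clusters in the WT library, 9148 of 10630 in replicate 1 of the *Mov10* Deletion (DEL1) and 4202 of 4962 in its replicate 2 (DEL2). The remaining 3846 miR-124-3p clusters lay at gene ends and serve as the comparison.

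The libraries came from whole brains of newborn (P0) C57Bl/6J mice, 1 WT and 2 *Mov10* Deletion. MOV10 is an RNA helicase that associates with AGO2. The *Mov10* Deletion mice came from a cross of a *Mov10* conditional knockout (floxed exons and *Emx1*-Cre) with a *Mov10* heterozygous mutant. *Emx1* directs Cre to the lineage of excitatory neurons of neocortex and hippocampus, and a whole brain also holds cells outside that lineage. The size-matched inputs of the 3 libraries were not analysed here. With 1 WT library the design allows no test between genotypes, so values are given library by library, with 95% exact Clopper-Pearson intervals that cover counting error only. The loss of *Mov10* RNA could not be checked in these files, and *Mov10* itself had no miR-124-3p cluster in any library.

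miR-124 is a miRNA of neurons, where it is among the most abundant. It guides AGO2 to RNAs that pair with its seed, the bases near its 5′ end, and is best known for repressing transcripts of non-neuronal genes such as *Ptbp1* through sites in their 3′ untranslated regions. AGO2 has also been crosslinked within introns, coding sequence and non-coding RNAs, which is where the clusters described here can fall.

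A part of the members was assigned to other miRNAs as well. In the WT library 893 of the 7708 members (11.6%) carried another miRNA, against 740 (8.09%) in DEL1 and 245 (5.83%) in DEL2. The most frequent partners with an entry in the sequence table, down to miR-128-3p, are shown with the seed (bases 2 to 8) in capitals, since they are the miRNAs that were ligated at the same place as miR-124-3p, and their sequences are those of RefSeq on GRCm38.p6.
miR-9-5p: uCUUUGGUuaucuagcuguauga
miR-125b-5p: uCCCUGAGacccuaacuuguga
let-7c-5p: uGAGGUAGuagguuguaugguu
let-7b-5p: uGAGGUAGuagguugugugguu
let-7a-5p: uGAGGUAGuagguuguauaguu
miR-181a-5p: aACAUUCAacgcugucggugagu
miR-16-5p: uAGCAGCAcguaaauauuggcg
miR-26a-5p: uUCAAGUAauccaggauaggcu
miR-128-3p: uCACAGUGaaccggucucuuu
miR-9-5p was listed with 236 members in the WT library, 174 in DEL1 and 63 in DEL2. miR-125b-5p shared 174, 106 and 40 members in the same order, and let-7c-5p shared 116, 97 and 40. The let-7 miRNAs have 1 seed in common, and their clusters cannot be counted as separate evidence. miR-466i-5p shared 62, 35 and 21 members.

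A few members lay on short annotated RNAs whose sequence can be shown whole. The WT library held 2 members on a mature miRNA of another family, DEL1 held 7 and DEL2 held 1. The *Mir99a* locus, chr16:77598938-77598964 on the plus strand, was the only one with such a member in more than 1 library, with a score of 3.0 in the WT and 7.0 in DEL2. The member covered all 22 nt of miR-99a-5p, shown with its seed in capitals beside the miRNAs of *Mir106b* and *Mir495*, which were covered in DEL1 with scores of 7.0 and 5.0.
miR-99a-5p: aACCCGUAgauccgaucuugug
miR-106b-5p: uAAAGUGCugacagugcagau
miR-495-3p: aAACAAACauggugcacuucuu
These members were 17 to 35 nt wide, narrower than the median member of their library (81, 68 and 72 nt).

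Target sequence on the files' build was at hand for the start windows of RefSeq genes, which run from 250 nt before to 50 nt after a start. The WT library had 10 members that shared at least 20 nt with such a window, DEL1 had 20 and DEL2 had 9. The hexamer TGCCTT, which pairs with the miR-124 seed, and the longer GTGCCTT that contains it were searched on the RNA's strand. TGCCTT was in 4 of the 10 WT members (40%, interval 12.2 to 73.8%), 3 of 20 (15%, 3.21 to 37.9%) and 2 of 9 (22.2%, 2.81 to 60.01%). The same stretches of all 32851 start windows held it in 2.09%, 1.93% and 1.91%. Among start-window clusters assigned to other miRNAs alone, 2 of 15 held it in the WT, and 0 of 24 and 0 of 13 in the *Mov10* Deletion libraries. The stretches with a match are given 5′ to 3′ on the strand of the RNA, with the match, and a following A where there is one, in capitals. In *Arl14ep* a further TGCCTT begins at the last capital T and is left in lower case.
*Gm32528* (chr5:36512409-36512438, minus): ttgtcacgagtGTGCCTTAagttttatgac
*Arl14ep* (chr2:106973245-106973274, minus): agggaatccggtaGTGCCTTgcctttggag
*Nat14* (chr7:4922895-4922924, plus): gcaaccccgtggagGTGCCTTtcagggccc
*Ppp2r5c* (chr12:110485808-110485837, plus): aggctggtttctTGCCTTAaggagtacagc
*Igf2* (chr7:142658792-142658821, minus): ccgccctcTGCCTTcgcctacccaagtgga
*Cacna1e* (chr1:154726090-154726119, minus): aggaatggagcttcgcagaggtTGCCTTta
*E130114P18Rik* (chr4:97584608-97584637, minus): cattcactgagtTGCCTTtgtatgccggga
The *Gm32528* stretch, which also lies inside *Tbc1d14*, was the only one matched in all 3 libraries, with scores of 18.8, 9.72 and 6.0. *Igf2*, the fetal growth factor, had a start-window member in all 3 (37.9, 8.86 and 10.04), and its TGCCTT fell inside the overlapping part only of the WT cluster. *Meis2* and *Ank2* also had start-window members in all 3 libraries, and neither held the hexamer in the part searched.

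Nearly all members lay on the sense strand of protein-coding genes. That class held 7291 WT members (94.6%, interval 94.1 to 95.1%), 8673 in DEL1 (94.8%, 94.3 to 95.3%) and 3968 in DEL2 (94.4%, 93.7 to 95.1%). The intervals of the 3 libraries overlap. Sense non-coding genes held 195, 254 and 137 members (2.53%, 2.78% and 3.26%), of which 126, 169 and 84 were in lncRNA genes. Intergenic members numbered 111, 116 and 59, members within 5000 nt past a protein-coding gene end 86, 69 and 26, and members antisense to a gene 25, 36 and 12. Exons, introns and untranslated regions of the files' build were not used here, so a member inside a gene can lie in any of them, including a 3′ untranslated region longer than 1000 nt or one of a shorter isoform.

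The share of miR-124-3p clusters that lie away from gene ends was 82.8% in the WT (82.0 to 83.5%), 86.1% in DEL1 (85.4 to 86.7%) and 84.7% in DEL2 (83.7 to 85.7%). All other miRNAs together had 81.4%, 86.8% and 86.7% of their assignments away from ends. Here and below, such assignments count a place once for each other miRNA listed there, and places shared with miR-124-3p are included. The interval of the miR-124-3p share overlapped that of the other miRNAs in the WT and DEL1, and lay below it in DEL2. miR-466i-5p had the higher share of 94.3%, 96.6% and 96.5%.

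Members crowded towards the 3′ side of genes even outside the last 1000 nt. Of the members whose midpoint lay inside a protein-coding gene, those 1 to 3 kb from the gene end made up 21.4% in the WT, 17.6% in DEL1 and 18.5% in DEL2. That zone is 3.75% of the gene territory over 1 kb from an end. It held 5.54%, 4.79% and 4.79% of all AGO2 clusters there, with no limit on their enrichment over input. The density of members in the zone was 41.0, 40.01 and 19.3 per Mb, against 75.8, 70.0 and 35.9 miR-124-3p clusters per Mb in the last 1 kb. Over 100 kb from the end it was 4.98, 7.34 and 3.15 members per Mb. At 10 to 100 kb it was 5.13, 6.0 and 2.78 members per Mb. By zone, density fell from the gene end to the zone of 10 to 100 kb in every library. Assignments of other miRNAs had 25.6%, 18.0% and 18.3% at 1 to 3 kb, above the members' share in the WT and within its interval in both *Mov10* Deletion libraries (16.8 to 18.4% and 17.3 to 19.8%). Of the members, 1859 in the WT (25.5%, 24.5 to 26.5%) lay over 100 kb from the end, with 2737 (31.6%, 30.6 to 32.6%) and 1175 (29.6%, 28.2 to 31.1%) in the *Mov10* Deletion libraries. Assignments of other miRNAs had 23.1%, 31% and 29.2% in that zone.

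**Figure D1:**
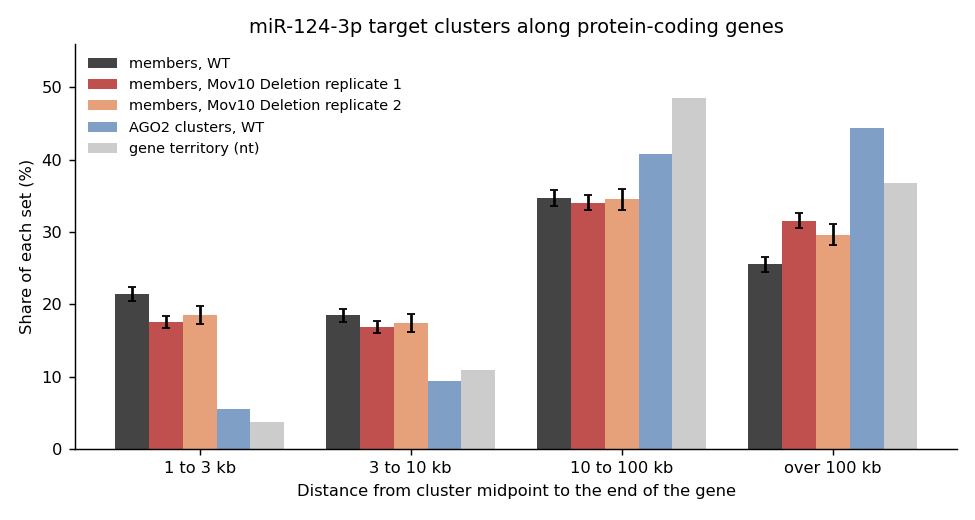
Share of each set (%, y axis) in 4 zones of distance from the cluster midpoint to the end of the protein-coding gene (x axis). The sets are the members of the 3 libraries with 95% exact intervals, all WT AGO2 clusters whatever their enrichment, and the length of gene territory. Members take 17.6 to 21.4% in the 1 to 3 kb zone, where territory is 3.75%, and less than territory in the zones beyond 10 kb.

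Position along the gene body gave the same picture on a relative scale. Among members inside 1 protein-coding gene of at least 50 kb, the last 20% of the gene held 36.4% in the WT, 32.0% in DEL1 and 32.9% in DEL2. Each of the other 4 stretches of the same length held 15 to 18.3%. All AGO2 clusters of the same genes, with no limit on their enrichment over input, were spread evenly, with 18.0 to 22.8% in each such stretch. The spread of enriched AGO2 clusters alone was not examined. The share of members on an enriched AGO2 cluster was 18.6%, 19.0% and 20.04% in the last 20% and 9.88%, 8.15% and 7.99% in the stretch at the gene start.

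The AGO2 clusters of the same libraries are a second readout, taken from reads without a ligated miRNA, and were not used to choose members. An AGO2 cluster was called enriched when its log2 ratio of immunoprecipitate over input was at least 3 and its −log10 p at least 3. Members on an enriched cluster numbered 1071 in the WT (13.9%, 13.1 to 14.7%), 1196 in DEL1 (13.1%, 12.4 to 13.8%) and 546 in DEL2 (13.0%, 12 to 14.0%). The share depends on the limits, and was 23.2%, 21.0% and 19.4% with a log2 ratio of at least 1, and 21.8%, 21.8% and 23.6% among members with a score of at least 5. Assignments of other miRNAs away from gene ends were on one in 19.6%, 11.7% and 11.2%, so the members were below these in the WT and above them in both *Mov10* Deletion libraries. The miR-124-3p clusters at gene ends were at 30.2%, 31.4% and 32.0%, outside the intervals of the members in each library. An AGO2 cluster of any strength lay under 66.5%, 51.0% and 55.6% of the members, and under 82.9%, 73.0% and 81.3% of the clusters at gene ends.

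The enriched share fell with distance from the gene end. It was 25.2% (23.1 to 27.4%), 26.3% (24.1 to 28.6%) and 22.6% (19.6 to 25.8%) at 1 to 3 kb, and 16.2%, 17.6% and 18.1% at 3 to 10 kb. Over 100 kb it was 8.55% (7.32 to 9.92%), 6.87% (5.95 to 7.88%) and 6.98% (5.59 to 8.59%). The intervals of the nearest and the farthest zone do not overlap in any library. Assignments of other miRNAs fell in the same way, from 30.9%, 22.9% and 19.7% at 1 to 3 kb through 25.8%, 19.0% and 16.5% at 3 to 10 kb to 9.41%, 4.49% and 4.24% over 100 kb, so the fall was not particular to miR-124-3p. The limit of 1000 nt did not mark a step. Members within 100 nt outside it were on enriched clusters in 31%, 30.6% and 29.8% (129, 111 and 47 members), and gene-end clusters more than 900 nt from the end in 28.1%, 26.1% and 24.5% (114, 115 and 53 clusters), with median scores of 5.89, 5.46 and 5.0 outside and 5.82, 5.0 and 5.0 inside. *Ids*, which encodes a lysosomal sulfatase, had its signal across that line. Its 2 WT members scored 198 and 113 beside a gene-end cluster of 463, and in each *Mov10* Deletion library the same place was 1 wider cluster that touched the last 1000 nt (469 and 201).

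The same sites recurred between libraries in part. A member recurred when it shared at least 1 nt on the same strand with a miR-124-3p cluster of another library. Of the WT members 3058 (39.7%, 38.6 to 40.8%) recurred in DEL1 and 1828 (23.7%, 22.8 to 24.7%) in DEL2. Of the DEL1 members 3149 (34.4%) recurred in the WT and 1632 (17.8%) in DEL2. Of the DEL2 members 1830 (43.6%) recurred in the WT and 1632 (38.8%) in DEL1. Every one of these shares was below that of the clusters at gene ends (50.4% and 31.4% for the WT, 54.8% and 29.2% for DEL1, 65.5% and 57.0% for DEL2).

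The lists differ in how their limits were drawn, which touches every overlap. All 1632 overlaps of members between the *Mov10* Deletion libraries were identical in start and end, and only 4 and 3 WT members had limits identical to a cluster of DEL1 and DEL2. For AGO2 clusters, 99.8% of the coordinates in each *Mov10* Deletion list were also in the other, and 0.0248% of the WT coordinates were in DEL1. The *Mov10* Deletion lists therefore share cluster limits that the WT list does not, and genotype and cluster calling cannot be told apart here. In the WT 235 members (3.05%) abutted another member, as did 701 (7.66%) and 258 (6.14%) in the *Mov10* Deletion libraries, and joining these left 7582, 8784 and 4067 separate stretches.

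Recurrence in any other library was 45.0% for the WT, 36.9% for DEL1 and 49.0% for DEL2, against 55.8%, 56.7% and 69.3% at gene ends. It fell from 51.5%, 51.4% and 64.6% at 1 to 3 kb to 42.1%, 27.6% and 36.9% over 100 kb. The WT value rested on DEL1, and without that library it was 23.7%. In all, 1414 WT members (18.3%, 17.5 to 19.2%) had a miR-124-3p cluster in both other libraries. Of these, 1308 lay in protein-coding genes in sense, and 290 (20.5%, 18.4 to 22.7%) were on an enriched AGO2 cluster in all 3 libraries.

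**Figure D2:**
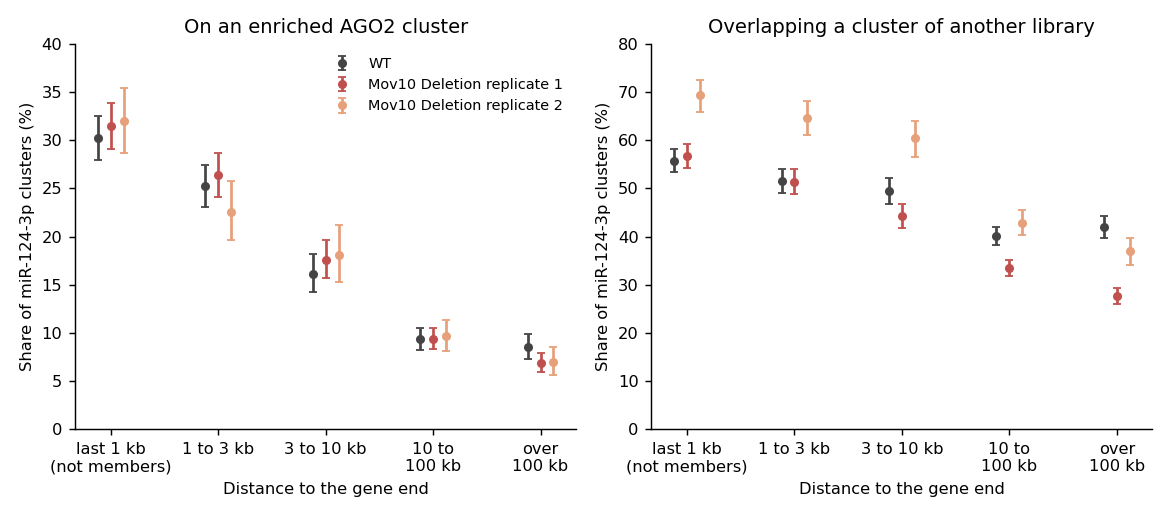
Share of miR-124-3p clusters (%, y axes) on an enriched AGO2 cluster (left) and overlapping a miR-124-3p cluster of another library (right), by distance to the gene end (x axis), as points per library with 95% exact intervals. The clusters of the last 1 kb, which are not members, are highest, and the enriched share drops to 6.87 to 8.55% over 100 kb.

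Scores were low for most members. The score is deposited without a stated unit and starts at 3. Its median was 5.07 in the WT (quartiles 3.78 and 8.84), 4.55 in DEL1 (3.49 and 6.90) and 4.0 in DEL2 (3.16 and 6.0). Clusters at gene ends had medians of 6.14, 5.49 and 5.0. The members of each library thus sat lower than its gene-end clusters, and the tail above a score of 50 held 122, 56 and 16 members.

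Score and recurrence went together. Of the WT members that scored 3 to under 4, 18.3% (16.8 to 19.9%) recurred in another library, and of those of 16 and over 95.8% (94.2 to 97.1%) did. In DEL1 the corresponding shares were 16.9% and 98.2%, and in DEL2 they were 30.1% and 99.3%. Members of 16 and over that lay over 100 kb from a gene end recurred in 96.6% of 148, 97.9% of 94 and 100% of 21 cases. At 1 to 3 kb the same class recurred in 98.6% of 220, 99.1% of 113 and 100% of 36, and the intervals of the near and far members overlap. Among the low scores of 3 to under 4 the far members recurred less, with 17.0%, 12.1% and 21.2% against 24.2%, 30.3% and 49.2%. Enriched AGO2 clusters lay under 49.3%, 46.8% and 66.7% of the far members of 16 and over, and under 2.11%, 2.27% and 1.96% of those under 4.

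**Figure D3:**
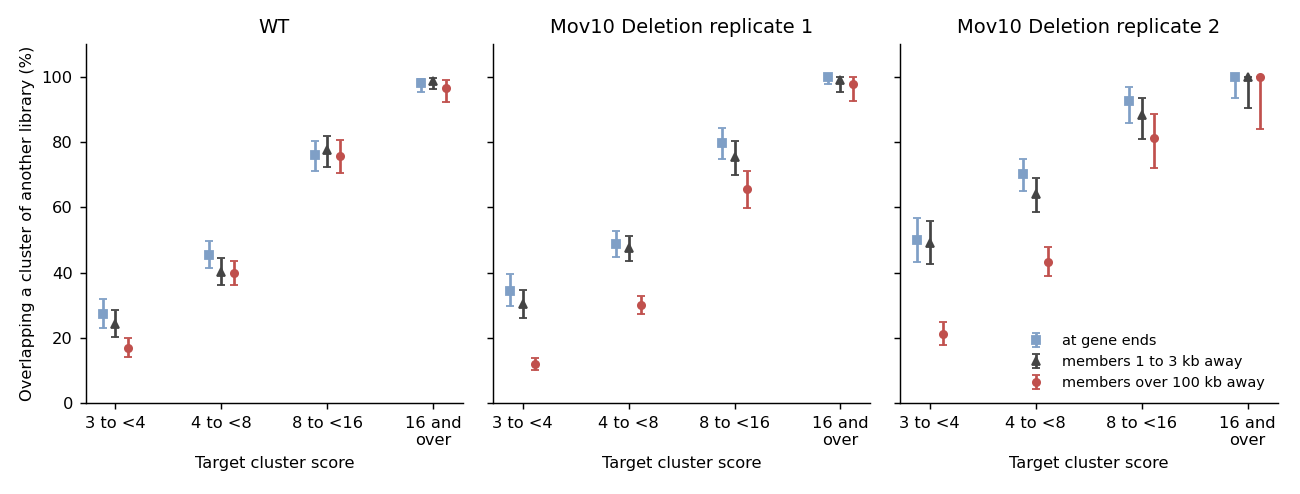
Share of miR-124-3p clusters that overlap a cluster of another library (%, y axis) in 4 classes of target cluster score (x axis), for clusters at gene ends and members 1 to 3 kb and over 100 kb away, 1 panel per library, with 95% exact intervals. In the class of 16 and over the shares are 96.6% or higher in every panel, and in the class of 3 to under 4 the far members are lowest.

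At the level of genes, 3652 of 21468 protein-coding genes had a member in the WT (17.0%), 4034 in DEL1 (18.8%) and 2431 in DEL2 (11.3%). A member in all 3 libraries was found in 1544 genes (7.19%), and this count was 2599 without DEL2, the smallest list, and 715 with a score of at least 5. 5472 genes had one in any library. Most genes with a member had 1, namely 56.2%, 57.4% and 67.2% of them. Genes with members were long, with a median of 58.6, 59.4 and 73.4 kb against 17.5 kb for all protein-coding genes, and 435 of the 987 genes of 200 kb and over (44.1%) had a member in all 3 libraries, but 82 of 7616 genes under 10 kb (1.08%).

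Named genes with a member in every library are given by the score of their best member in the WT, DEL1 and DEL2, in that order. *Tnrc6a*, *Tnrc6b* and *Tnrc6c* encode the GW182 proteins that bind Argonaute and recruit deadenylases. *Tnrc6b* had 171, 86.5 and 26.0 at chr15:80933482-80933603, 7545 nt from the gene end, on AGO2 clusters with log2 ratios of 5.78, 7.55 and 6.59. *Tnrc6a* had 134, 55.9 and 16.9 at 6458 nt from the end, and *Tnrc6c* had 96.1, 46.4 and 27.0 at 21719 nt. *Ddx6*, a helicase of mRNA decay and P-bodies, had 205, 127 and 69.7 at chr9:44636869-44637006, 3795 nt from the end, with log2 ratios of 4.27, 4.55 and 4.26. *Qk*, a splicing regulator of glia, had 89.7, 66.3 and 39.2 at 1993 nt from the end. All of these places overlapped between the 3 libraries and those of *Tnrc6* and *Ddx6* genes were enriched for AGO2 in each.

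Of the 39 annotated RNA binding and splicing genes in the list, 33, 32 and 22 had a member (84.6%, 82.1% and 56.4%) and 20 had one in all 3 libraries. Over all protein-coding genes the shares were 17.0%, 18.8% and 11.3%. The median length of the listed genes is 89.2 kb, and shares at equal length or RNA abundance were not compared. This list and those below were drawn up with earlier results of these data known. *Rbfox1*, a neuronal splicing factor in a gene of 1530 kb, had 26, 45 and 27 members. Its best scores were 25.3, 20.4 and 10.9, from members at 3 different places, none of them on an enriched AGO2 cluster. Each of these places had a miR-124-3p cluster in all 3 libraries, so only the place that ranked highest changed between libraries.

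Cytoskeletal genes had members in most cases. Of 37 genes in the list, 34, 31 and 29 had one (91.9%, 83.8% and 78.4%), and 27 had one in all 3. Over all protein-coding genes the shares were 17.0%, 18.8% and 11.3%, and 7.19% in all 3. This list's median gene length is 91.7 kb against 17.5 kb for all protein-coding genes. Shares at equal length or RNA abundance were not compared. *Actb*, cytoplasmic actin, had 80.01, 104 and 57.4 at chr5:142904610-142904703, 1542 nt from the end of a 4.86 kb gene, with AGO2 log2 ratios of 3.01, 3.34 and 3.50. *Limch1*, an actomyosin regulator outside the list, had 161, 174 and 63.4 at 1226 nt from the end. *Tubb3*, neuronal tubulin, had 47.4, 55.3 and 29.2 at 1177 nt, and *Mapt*, the microtubule-associated protein tau, had 29.8, 47.9 and 27.3 at 3990 nt. *Ank2*, which anchors membrane proteins to spectrin, had 31.9, 48.2 and 21.4 at 20795 nt from the end, where the AGO2 ratio was low (0.73, 0.95 and 0.67). *Numa1*, a spindle and microtubule protein, had 1 WT member of score 3.91 at 5303 nt from its end with no AGO2 cluster, beside a WT gene-end cluster of 8.44. Neither *Mov10* Deletion library had a miR-124-3p cluster there. The WT scores are low and read depth is not known, so this absence cannot show that the contact was lost. The paper reports AGO2 binding around the miR-124 site of *Numa1* in *Mov10* Deletion brains as well, though weaker than in the WT.

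Synaptic adhesion and axon guidance genes carried most members of any list. Of 50 genes, 47, 45 and 43 had one (94.0%, 90% and 86.0%) with 394, 542 and 237 members, and 41 had one in all 3. All protein-coding genes had shares of 17.0%, 18.8% and 11.3%. The list's median gene length is 585 kb, and long genes had members more often in general. Its share is therefore not a comparison at equal length or RNA abundance. *Cadm2*, a synaptic cell adhesion gene of 966 kb, had 182, 148 and 57.5 at chr16:67619846-67619959, which is 964487 nt from the gene end and so close to its start, with AGO2 log2 ratios of 6.71, 4.99 and 4.27. *Nlgn1*, the postsynaptic neuroligin, had 83.3, 84.3 and 48.9 at chr3:25868067-25868160, 446306 nt from the end. *Nrxn3*, a presynaptic neurexin, had 66.2, 35.4 and 33.0 at chr12:89089502-89089625, 1245373 nt from the end. These 3 places, all over 100 kb from the gene end, were enriched for AGO2 in every library.

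Members were also numerous within such genes. *Ptprd*, a receptor phosphatase of synapse formation, had 32, 45 and 21 members, the most of any gene together with *Rbfox1*. *Nrxn3* had 28, 36 and 13, and *Tenm2* had 23, 41 and 15. The best *Ptprd* member was at the same place in the WT and DEL2, 817983 nt from the end (105 and 30.6), and at 2147 nt from the end in DEL1 (63.6). Both places had a member in all 3 libraries. The first scored 47.1 in DEL1, and the second 77.0 in the WT and 20.8 in DEL2. The best *Tenm2* members scored 24.98, 20.9 and 13.6 on AGO2 clusters with log2 ratios of 1.24, 0.91 and 2.42. That of DEL2 lay at another place than the one shared by the WT and DEL1.

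**Figure D4:**
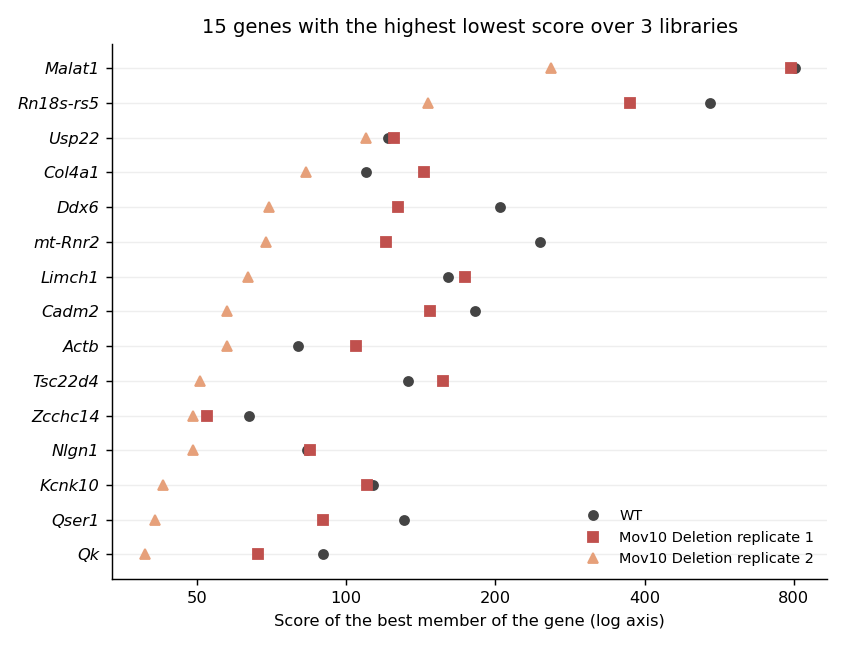
Score of the best member (x axis, log scale) in each library for the 15 genes with a member in all 3 libraries whose lowest score was highest (y axis). *Malat1* reaches 805, 790 and 259, and DEL2 is lowest for every gene shown.

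Chromatin regulators had a member in 37, 32 and 27 of 41 genes (90.2%, 78.0% and 65.9%), and 23 had one in all 3. The shares of all protein-coding genes were 17.0%, 18.8% and 11.3%. Genes of this list have a median length of 94.8 kb, and shares at equal length or RNA abundance were not compared. *Kdm6b*, an H3K27 demethylase, had 114, 65.3 and 26.1 at chr11:69406313-69406441, 7870 nt from the end, with log2 ratios of 4.67, 4.36 and 3.76. *Crebbp*, a histone acetyltransferase, had 88.2, 42.2 and 17.0 at 4390 nt. *Kmt2a*, an H3K4 methyltransferase, had 73.2, 71.1 and 16.3, with the best member of DEL1 at another place than that of the WT and DEL2. *Usp22*, a deubiquitinase of the SAGA complex outside the list, had the steadiest scores of the protein-coding genes named here, 122, 125 and 110, at chr11:61157218-61157261, 5459 nt from the end.

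Ion channels and receptors had a member in 28, 34 and 31 of 36 genes (77.8%, 94.4% and 86.1%), and 25 had one in all 3. The shares of all protein-coding genes were 17.0%, 18.8% and 11.3%. Genes of this list are long, with a median of 334 kb, and shares at equal length or RNA abundance were not compared. *Scn8a*, a voltage-gated sodium channel, had 115, 22.3 and 22.3 at chr15:100976335-100976505, 69519 nt from the end, with log2 ratios of 5.86, 6.07 and 6.54. *Gria2*, an AMPA receptor subunit, had 55.1, 49.0 and 18.8 at 7100 nt from the end, and *Grin2b*, an NMDA receptor subunit, had 26.6, 42.4 and 17.7 at 321000 nt. *Kcnk10*, a two-pore-domain potassium channel, had 113, 110 and 42.6 at 5293 nt, with log2 ratios of 6.36, 6.58 and 6.76.

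Genes known as targets of miR-124 had members in part. Of 34, a member was found in 21, 19 and 13 (61.8%, 55.9% and 38.2%), and 9 had one in all 3 libraries. All protein-coding genes had shares of 17.0%, 18.8% and 11.3%. The list's median gene length is 25.9 kb, and a difference between lists was not tested. Shares at equal length or RNA abundance were not compared. *Iqgap1*, a scaffold of the cytoskeleton, had 76.7, 60.6 and 30.5 at chr7:80713043-80713151, 1515 nt from the end, with log2 ratios of 3.16, 3.61 and 3.58. *Itgb1*, an integrin subunit, had 23.2, 15.8 and 7.03 at 1263 nt from the end, with log2 ratios of 3.66, 4.80 and 4.71. *Zeb2*, a transcription factor, had 22.5, 30.1 and 9.65, with its best member at 1 place in both *Mov10* Deletion libraries and at another in the WT. *Ptbp2*, the neuronal paralogue of *Ptbp1*, had 16.5, 15 and 7.86, with best members at places that differed between libraries. *Ptbp1* had 1 member, in the WT, with a score of 14.2.

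**Figure D5:**
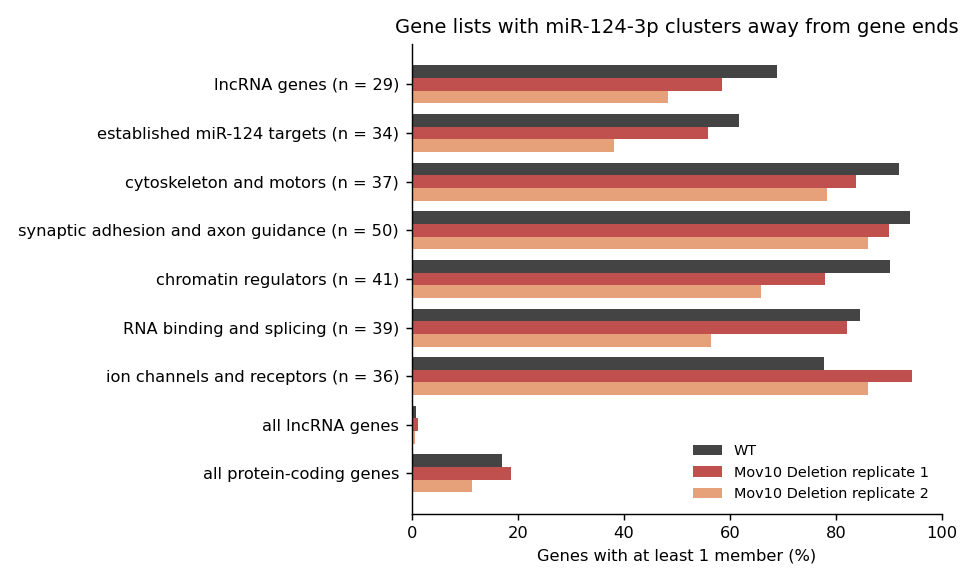
Share of the genes of 7 lists with at least 1 member (%, x axis), with 1 bar per library, beside all protein-coding genes (17.0%, 18.8% and 11.3%) and all lncRNA genes (0.861%, 1.11% and 0.650%). The lists reach 38.2 to 94.4%, and they differ in gene length. They were drawn up with earlier results of these data known, and were not compared at equal RNA abundance.

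The highest score of all lay in a non-coding RNA. *Malat1*, an abundant nuclear lncRNA of 6.98 kb, had 10, 7 and 7 members, with best scores of 805, 790 and 259 at chr19:5798702-5798859, on AGO2 clusters whose log2 ratios were 1.05, 1.36 and 1.31. Other miRNAs were listed at that place, up to 10, 14 and 7 with miR-124-3p counted. *Meg3*, an imprinted lncRNA, had 52.9, 45.7 and 36.4 at chr12:109545430-109545532, with log2 ratios of 0.00, 0.23 and 0.47. *Norad*, a cytoplasmic lncRNA that binds Pumilio proteins, had 85.5, 25.6 and 14.9 at chr2:156391790-156391863, which also lies in *Gm14170*, and there AGO2 was enriched with log2 ratios of 3.59, 3.91 and 3.34. *Snhg14*, the host transcript of imprinted small nucleolar RNAs, had 58.8, 57.0 and 11.8. *AI504432* had 64.6, 33.3 and 19.7, and *C130071C03Rik* had 29.9, 18.9 and 14.7. Of 29 annotated lncRNA genes in the list, 20, 17 and 14 had a member (69.0%, 58.6% and 48.3%) and 12 had one in all 3. Over all 11381 annotated lncRNA genes the shares were 0.861%, 1.11% and 0.650%, with 179 (1.57%) in any library and 43 (0.378%) in all 3. Over all 23844 non-coding genes they were 0.633%, 0.826% and 0.461%, and 294 (1.23%) had a member in any library and 56 (0.235%) in all 3. The lncRNA list was drawn up with earlier results of these data known, and shares at equal RNA abundance were not compared.

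Ribosomal RNA sequences also carried high scores. *Rn18s-rs5*, an 18S ribosomal RNA pseudogene, had 17, 20 and 18 members with best scores of 544, 375 and 146. At its best member 9, 71 and 5 miRNAs were listed with miR-124-3p counted. The best member of DEL1 lay at another place than those of the WT and DEL2. That of the WT was on an AGO2 cluster with a log2 ratio of 1.55, and those of both *Mov10* Deletion libraries were on none. The mitochondrial genome held 24, 20 and 13 members. *mt-Rnr2*, the large mitochondrial ribosomal RNA, had 246, 120 and 68.8 at position 1816 to 1901 of chromosome M with 18, 8 and 5 miRNAs and no AGO2 cluster. *mt-Rnr1* had 130, 61.4 and 25.7 with 41, 27 and 19 miRNAs. Its best members lay on AGO2 clusters with log2 ratios of 2.46, 0.92 and 1.12, none of them enriched. Whole reads that matched repeats or ribosomal RNA were set aside before AGO2 clusters were called. A missing AGO2 cluster on ribosomal RNA sequence is therefore not informative about AGO2. Whether the mitochondrial ribosomal RNAs were among the sequences set aside is not stated, and *mt-Rnr1* did hold AGO2 clusters. *Tubb2a-ps2*, a tubulin pseudogene, had 61.7, 49.98 and 30.4. Whether reads of a related tubulin gene were placed there was not tested.

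Among 6 annotated genes that give rise to miR-124 itself, 2, 1 and 1 had a member (33.3%, 16.7% and 16.7%). Over all non-coding genes the shares were 0.633%, 0.826% and 0.461%, and 6 genes are too few for a comparison. *Mir124-2hg* had 1 in each library (6.14, 3.0 and 6.09), of which those of the WT and DEL1 lay at the same place, and *Mir124a-1hg* had 1 in the WT (4.72). None of the 4 lay on an AGO2 cluster.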

How the data were processed

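AGO2 chimeric eCLIP was run on 3 AGO2 immunoprecipitates of P0 whole brain, each with a size-matched input. The authors removed UMIs with UMI-tools 1.1.1, trimmed adapters with cutadapt 3.2, mapped whole reads to repeats and ribosomal RNA and then to mm10 with STAR 2.7.7a, and called clusters with CLIPper. For chimeras, miRNAs were sought with Bowtie 1.2.3 in the reads left unmapped, and the rest of such a read, once its miRNA was cut off, was placed on mm10 with STAR. The AGO2 files deposited by the authors give −log10 p (up to 400) and a log2 ratio of immunoprecipitate over input per cluster. The target files deposited by the authors give a miRNA name and a score of at least 3, whose unit is not given in the sources used here. Read depth is not in these files. The labels do not say whether the 2 *Mov10* Deletion samples are separate litters, and their cluster limits are shared.

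Starts were converted from 0-based to 1-based positions. Genes came from RefSeq on GRCm38.p6, the mm10 assembly. Strand came from RefSeq sequence records for 17492 protein-coding genes and, by symbol alone, from GENCODE vM39 for 3976, and 432 of 21900 without a strand were left out. Classes were assigned in the order sense protein-coding, sense non-coding, within 5000 nt past a protein-coding end, antisense, intergenic. Distance ran from the cluster midpoint to the nearest end of a sense protein-coding gene around it. Overlap meant at least 1 nt on the same strand. Shares carry 95% Clopper-Pearson intervals (Python 3.11.15, pandas 2.3.3, scipy 1.17.1, figures in matplotlib 3.10.9). Overlap, class and distance steps were tested on simulated regions with known answers. Alternatives changed the gene-end window (500 and 3000 nt), the lowest score (5), clusters with several miRNAs, the overlap (50%), the AGO2 limits and the libraries used.

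Genes are named by rule: the 15 with a member in all 3 libraries and the highest lowest score, the 5 with the highest score in each library, the 5 with most members, up to 4 per list, up to 10 non-coding genes with members in all 3, and *Numa1* and *Mov10*. Some genes that this rule names are not reported here. Genes of the start windows and of miRNA hairpins, and *Ptbp1*, were named after their values were seen. The members and the gene lists were chosen with earlier results of these data known.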

Additional observations from a re-analysis of the deposited data

How the results depend on the processing

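No paired analysis was possible because the WT group has 1 library and no result comes from a test. Over the 82 values recomputed, 28 stayed within their counting interval (or, for counts, within 1.5 times) and 54 moved out of it, and for none was the cause tested. Values follow the order WT, *Mov10* Deletion replicate 1, replicate 2. With gene ends of 500 nt, the share of miR-124-3p clusters away from ends was 89.9%, 92.1% and 91.2%. With 3000 nt it was 65.9%, 71.6% and 69.7%, with 93.2%, 93.8% and 93.2% of members in protein-coding genes. With a score of at least 5, 3974, 3915 and 1637 members remained, away shares were 80.2%, 82.1% and 81.1%, protein-coding shares 93.7%, 94.2% and 93.3%, recurrence 50.8%, 49.6% and 63.4%, enriched AGO2 shares 21.8%, 21.8% and 23.6%, and 715 genes had a member in all libraries. With clusters of miR-124-3p alone, away shares were 84.2% and 87.2% (WT and replicate 1), protein-coding shares 95.4%, 95.4% and 95.4%, and median scores 4.98 and 4.40 (WT and replicate 1). Genes without a strand put on both strands gave a WT protein-coding share of 95.2%. Reciprocal overlap of 50% gave recurrence of 40.6% (WT) and 33.9% (replicate 1). AGO2 limits of log2 1 gave enriched shares of 23.2%, 21.0% and 19.4%, and coverage of 50% of the cluster gave 13.0%, 11.4% and 11.9%. Leaving out a *Mov10* Deletion library gave recurrence of 23.7 to 39.7% for the WT, 34.4% for replicate 1 and 43.6% for replicate 2, and 1782 to 2599 genes with a member in all remaining libraries. For the share over 100 kb from the gene end, alternatives chosen after seeing the data gave 23.1%, 26.5% and 26.2% with a score of at least 5, 27.5% and 32.9% (WT and replicate 1) with miR-124-3p alone, and 24.0%, 23.8% and 22.7% among recurring members. Read depth is not known, so the shorter list of replicate 2 limits what its absent members can say.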
